A study of Mus musculus with 8 samples.

Results

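The genes described here encode 9 subunits of the Polycomb complexes, chosen by symbol from a deposited table of 22274 mouse genes: Ezh1, Ezh2, Eed, Suz12, Bmi1, Ring1, Cbx2, Cbx7 and Cbx8. Each symbol matched 1 row, and 9 of 9 passed the filter on low counts, which left 13702 genes for testing. RNA was sequenced from RFB cells, a mouse kidney line labelled as fibroblasts, in 8 libraries all from cells given TGF-β, the cytokine best known for inducing matrix genes in kidney scarring. An adenovirus named for Cre recombinase (ad-CRE), which cuts out DNA between loxP sites, was used for 4 libraries, and one named for GFP (ad-GFP), a fluorescent protein, for the other 4. The series' design text names Suv39h1, an enzyme that methylates histone H3 at a residue other than the Polycomb one, as knocked down, and the labels describe no loxP allele. Separate cultures are not stated for the replicates, so the p-values rest on a spread between libraries that may be technical.

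Polycomb proteins keep genes silent through a pair of complexes. PRC2 methylates lysine residues on the tail of histone H3 (the H3K27 mark): Ezh2 or its relative Ezh1 carries the catalytic site, Suz12 is the scaffold, and Eed binds the finished mark and stimulates the enzyme. PRC1 attaches ubiquitin to histone H2A through Ring1 or Rnf2 paired with a PCGF protein such as Bmi1, and its chromobox (Cbx) subunits dock on the PRC2 mark. In mouse cells Ezh2 is known to be most abundant in dividing cells, and Ezh1 to persist in resting ones. In kidney fibroblasts, Ezh2 is known from inhibitor studies in rodents as a factor that favours matrix production.

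Total counts per library were 17572152 to 22297598 in ad-CRE and 15998257 to 20920828 in ad-GFP. Suv39h1 stood at 31.6 to 33.4 CPM (a read count scaled to a common library size) in ad-CRE, against 37.2 to 44.1 CPM in ad-GFP. The chromatin remodelling ATPase gene Smarca4, included because earlier results showed it to have moved, was 8.39-fold lower, at 29.9 to 37.3 CPM in ad-CRE and 276 to 300 CPM in ad-GFP. Of 12 fibroblast markers 9 fell and 1 rose, of 12 tubular epithelial markers 2 fell and 7 rose, and 8 of 8 endothelial and 5 of 8 leukocyte markers fell; the 1 rise of a fibroblast marker was lost in 7 of 18 other settings, among them the fits without ad-CRE replicate 3 or without ad-GFP replicate 3. Over all tested genes 36.3% fell and 36.8% rose. The keratin gene Krt8, an epithelial marker, had a mean of 1983 CPM in ad-CRE and 745 CPM in ad-GFP, so cells labelled as fibroblasts held epithelial transcripts in both groups. Summed fibroblast markers made up 789 to 849 CPM in ad-CRE and 1850 to 1949 CPM in ad-GFP, and summed epithelial markers 4107 to 4216 CPM in ad-CRE and 1992 to 2198 CPM in ad-GFP. Aqp2 of the collecting duct and Cd3e of T cells were at 0 counts in all libraries, while the fibroblast genes Lum and Fap were too low to test. Fewer cells of a type and less RNA per cell cannot be told apart in such bulk libraries, and the part of cell type in the results that follow was not tested.

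Among the 9 Polycomb genes, Ezh2, Eed and Cbx2 fell in ad-CRE, while Ezh1, Ring1, Cbx7 and Cbx8 rose. Suz12 and Bmi1 did not pass the test. The largest rise was that of Cbx7, 1.82-fold, and the largest fall that of Cbx2, to 0.565 of the ad-GFP level. A gene was called where the adjusted p of edgeR's quasi-likelihood test, with Benjamini-Hochberg adjustment over all genes tested, lay under 0.05. By that rule 7 of the 9 genes were called, 4 upwards and 3 downwards, beside a background of 73.1% of all tested genes called, 36.8% upwards and 36.3% downwards. A share near that background says nothing particular about Polycomb genes, so the account turns on the sizes and directions of single genes. Their median log2 fold change was 0.07, whereas the median over all genes was under 0.001 and the median size of a change, in either direction, was 0.32. In 6 of the 9 genes the libraries of the groups did not overlap, which was so in 66.2% of all tested genes, and the same 6 were also called, against 65.1% of all. At an adjusted p under 0.01, edgeR called 6 of 9, against 65.7% of all tested genes. Tested against a minimum change of 1.2-fold, 6 of 9 passed, against 43.4% of all genes.

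**Figure D1:**
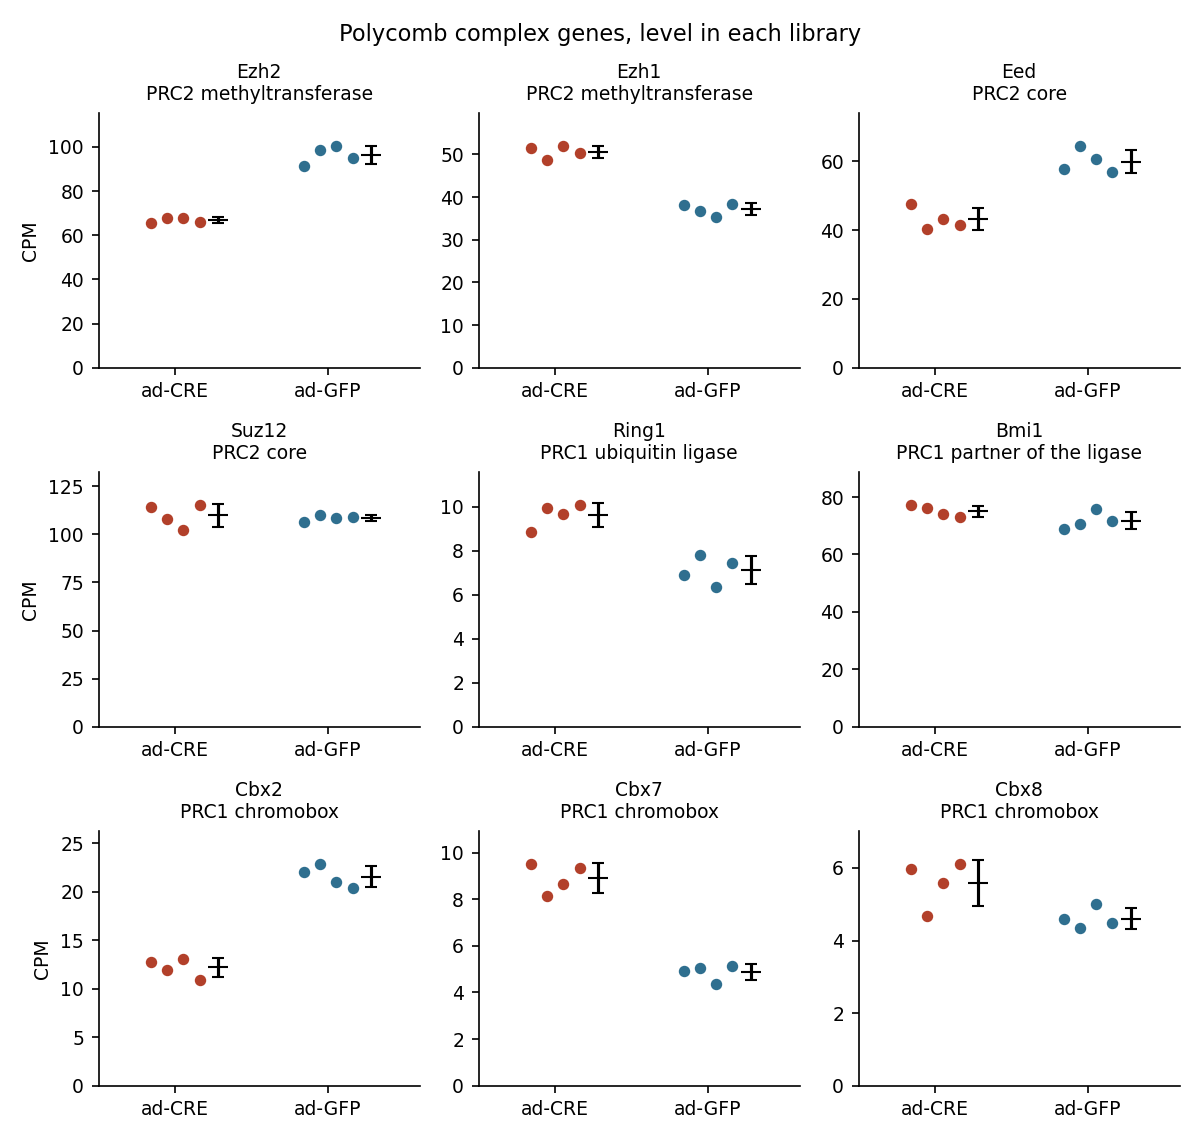
Level of each Polycomb gene in CPM (vertical axis from 0) in the 4 ad-CRE and 4 ad-GFP libraries (points), with the mean and SD as a bar beside them. The groups lie apart for Ezh2, Ezh1, Eed, Ring1, Cbx2 and Cbx7, and overlap for Suz12, Bmi1 and Cbx8.

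The catalytic genes of PRC2 moved in opposite directions. Ezh2 (ENSMUSG00000029687, GRCm38 chromosome 6, 47530139 to 47595341, minus strand, protein-coding) encodes the more active methyltransferase. It had 65.3, 68.0, 67.7 and 65.9 CPM in ad-CRE replicates 1 to 4, against 91.3, 98.7, 100 and 94.8 CPM in ad-GFP replicates 1 to 4. Every ad-CRE library lay below every ad-GFP library. Its mean was 66.7 ± 1.31 CPM in ad-CRE and 96.3 ± 4.06 CPM in ad-GFP (SD, n = 4 each), so that log2 of the fold was −0.53 (SE 0.038, edgeR adjusted p = 1.33e-13), resting on 5359 reads in ad-CRE and 7130 in ad-GFP.

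Ezh1 (ENSMUSG00000006920, chromosome 11, 101191115 to 101226463, minus strand, protein-coding) encodes the alternative methyltransferase, whose enzymatic activity is weaker. It had 51.5, 48.8, 51.9 and 50.3 CPM in ad-CRE replicates 1 to 4, against 38.2, 36.8, 35.4 and 38.3 CPM in ad-GFP replicates 1 to 4. All ad-CRE libraries were above all ad-GFP libraries. The log2 fold change was 0.45 (SE 0.046, edgeR adjusted p = 4.42e-10), from means of 50.6 ± 1.43 CPM in ad-CRE and 37.2 ± 1.37 CPM in ad-GFP (SD, n = 4 each).

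To set these genes against each other, FPKM values (counts scaled by gene length and library size, as the authors deposited them) were used, since longer genes draw more reads. Ezh2 stood at 25.8 to 29.6 FPKM in ad-CRE and 38.6 to 42.1 FPKM in ad-GFP, and Ezh1 at 11.6 to 12.4 FPKM in ad-CRE and 8.59 to 9.27 FPKM in ad-GFP. Ezh2 thus exceeded Ezh1 2.10- to 2.55-fold in ad-CRE and 4.16- to 4.83-fold in ad-GFP, with no overlap. The log2 ratio of Ezh2 to Ezh1 averaged 1.22 ± 0.116 in ad-CRE and 2.17 ± 0.098 in ad-GFP (SD, n = 4 each), a difference of −0.95 (exact two-sided permutation p = 0.0286, the smallest p that 4 against 4 libraries allow). As every ad-CRE library had less Ezh2 and more Ezh1 than every ad-GFP library, this p was fixed beforehand. It adds nothing to the results of the single genes. Ezh1 made up 30.0% ± 1.69 of the summed FPKM of both genes in ad-CRE and 18.2% ± 1.01 in ad-GFP (SD, n = 4 each). That sum was 38.1 to 41.4 FPKM in ad-CRE, below the 47.8 to 51.1 FPKM of ad-GFP.

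**Figure D2:**
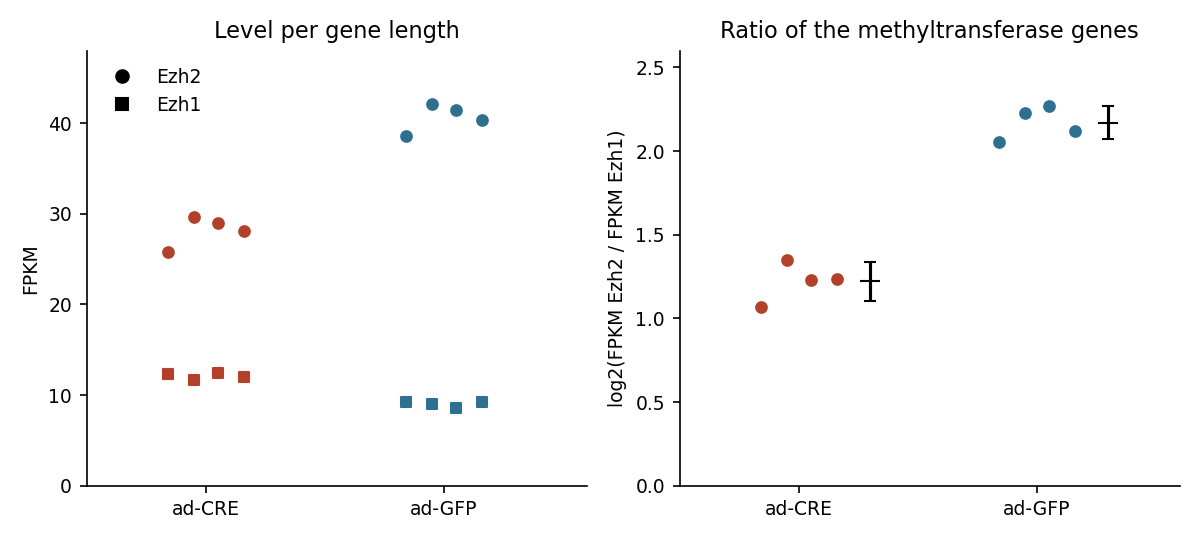
Left, FPKM of Ezh2 (circles) and Ezh1 (squares) in each ad-CRE and ad-GFP library; right, the log2 ratio of their FPKM values, with mean and SD. The ratio lay between 1.07 and 1.35 in ad-CRE and between 2.06 and 2.27 in ad-GFP.

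The non-catalytic core genes of PRC2 did not move together either. Eed (ENSMUSG00000030619, chromosome 7, 89954654 to 89980983, minus strand, protein-coding), the reader of the mark, had 47.6, 40.4, 43.3 and 41.4 CPM in ad-CRE replicates 1 to 4 and 57.7, 64.4, 60.6 and 57.0 CPM in ad-GFP replicates 1 to 4. The groups did not overlap, and ad-CRE replicate 1 was the ad-CRE library nearest to ad-GFP. Eed fell to 0.721 of the ad-GFP level (log2 fold change −0.47, SE 0.051, edgeR adjusted p = 1.25e-09), close in size to Ezh2. Suz12 (ENSMUSG00000017548, chromosome 11, 79993106 to 80034123, plus strand, protein-coding), the scaffold that PRC2 needs for stability, had 114, 108, 102 and 115 CPM in ad-CRE replicates 1 to 4 and 106, 110, 108 and 109 CPM in ad-GFP replicates 1 to 4. Its ad-CRE libraries ranged both below and above the ad-GFP libraries. The log2 fold change was 0.02 with a 95% interval of −0.05 to 0.09 (edgeR adjusted p = 0.634). Its sign was not stable over the settings tried.

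Non-coding genes or pseudogenes on the opposite strand overlap Ezh2, Eed and Suz12 in GENCODE M21, and the sources used here do not say whether counting used strand. Eed also overlaps Gm45120, an unconfirmed gene model on its own strand, where use of strand would not separate reads. Reads of such partners could therefore not be told apart from those of the Polycomb genes.

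Promoters of the 4 core PRC2 genes are shown because these genes share a complex yet moved apart. Each window holds 250 bases before and 50 bases after the RefSeq gene start (GRCm38.p6, read along the gene's strand). Capitals mark matches, on either strand, to TTTGGCGC or TTTCCCGC, a pair of forms of the site bound by E2F, the factors that switch on genes of DNA replication.
Ezh2 (fell), chr6:47594981-47595280, minus strand: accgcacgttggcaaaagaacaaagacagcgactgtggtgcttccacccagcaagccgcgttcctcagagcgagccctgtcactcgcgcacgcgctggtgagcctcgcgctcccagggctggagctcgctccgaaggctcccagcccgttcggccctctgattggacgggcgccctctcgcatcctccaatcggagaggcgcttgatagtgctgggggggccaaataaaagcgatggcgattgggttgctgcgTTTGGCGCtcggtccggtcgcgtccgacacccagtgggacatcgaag
Eed (fell), chr7:89980927-89981226, minus strand: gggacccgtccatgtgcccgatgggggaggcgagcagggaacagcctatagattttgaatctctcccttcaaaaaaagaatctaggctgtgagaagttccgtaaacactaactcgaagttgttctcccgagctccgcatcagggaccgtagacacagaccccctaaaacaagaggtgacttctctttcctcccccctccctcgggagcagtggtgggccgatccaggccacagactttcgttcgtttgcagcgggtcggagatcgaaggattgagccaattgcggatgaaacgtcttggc
Ezh1 (rose), chr11:101226414-101226713, minus strand: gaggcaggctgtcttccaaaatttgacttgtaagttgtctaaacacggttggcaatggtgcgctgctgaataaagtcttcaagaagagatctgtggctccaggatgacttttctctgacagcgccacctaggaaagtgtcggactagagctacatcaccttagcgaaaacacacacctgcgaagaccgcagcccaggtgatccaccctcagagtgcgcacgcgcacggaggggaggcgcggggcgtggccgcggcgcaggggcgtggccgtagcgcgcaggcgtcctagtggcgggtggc
Suz12 (did not pass), chr11:79992856-79993155, plus strand: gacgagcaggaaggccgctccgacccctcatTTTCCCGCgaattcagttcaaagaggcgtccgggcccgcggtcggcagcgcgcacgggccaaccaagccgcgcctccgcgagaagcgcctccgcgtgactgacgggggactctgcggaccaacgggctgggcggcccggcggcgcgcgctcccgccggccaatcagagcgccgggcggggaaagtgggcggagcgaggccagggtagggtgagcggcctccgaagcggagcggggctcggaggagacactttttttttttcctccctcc
The Ezh2 window held TTTGGCGC on the gene's strand, from base 4 after the RefSeq start, a form present in 0.514% of 32851 RefSeq promoter windows of that length. For Ezh2 and Cbx7 the whole window lies inside the GENCODE M21 span of the gene, so the annotations place their starts differently. The Suz12 window held TTTCCCGC on the gene's strand, starting 219 bases before the gene start, a form found in 1.07% of windows. The windows of Ezh1 and Eed held neither string, nor did those of Ring1, Bmi1, Cbx7 and Cbx8; Cbx2 had no entry. A match is a description of letters and was present both in a gene that fell and in one that did not pass. All 8 windows were rich in CG dinucleotides, from 17 in Eed to 41 in Suz12, where the median window held 7. Both strings contain CG, and their shares among windows as rich in CG were not determined.

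In PRC1, the ligase gene Ring1 rose and Bmi1 did not pass. Ring1 (ENSMUSG00000024325, chromosome 17, 34020792 to 34024680, minus strand, protein-coding), which adds ubiquitin to H2A, had 8.87, 9.94, 9.67 and 10.1 CPM in ad-CRE replicates 1 to 4, against 6.91, 7.81, 6.34 and 7.45 CPM in ad-GFP replicates 1 to 4. The ad-CRE libraries were all the higher ones. Its log2 fold change was 0.43 (SE 0.098, edgeR adjusted p = 0.00026), on only 771 reads in ad-CRE and 529 in ad-GFP. The other ligase gene, Rnf2, which is not among the 9, was the more abundant form and rose by 0.65 (edgeR adjusted p = 2.3e-15). Ring1 made up 13.2% to 14.9% of the summed FPKM of both ligase genes in ad-CRE and 14.0% to 17.7% in ad-GFP, so the ranges of its share overlapped.

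Bmi1 (ENSMUSG00000026739, chromosome 2, 18677018 to 18686629, plus strand, protein-coding) encodes the PCGF partner of the ligase known in mouse cells for silencing Cdkn2a. It had 77.1, 76.2, 74.1 and 72.9 CPM in ad-CRE replicates 1 to 4 and 69.0, 70.6, 76.0 and 71.6 CPM in ad-GFP replicates 1 to 4. The groups overlapped through ad-GFP replicate 3, the highest of its group. The log2 fold change was 0.07 with a 95% interval of −0.01 to 0.15 (edgeR adjusted p = 0.123), and without ad-GFP replicate 3 it was 0.10 and passed (edgeR adjusted p = 0.0351). On the FPKM scale Bmi1 was level, at 25.2 ± 0.598 in ad-CRE and 25.2 ± 1.58 in ad-GFP (SD, n = 4 each). Of the 6 PCGF genes, Bmi1 made up 23.1% to 24.8% of the summed FPKM in ad-CRE and 25.5% to 27.9% in ad-GFP. The other 5 PCGF genes rose, by log2 fold changes of 0.12 for Pcgf6 (edgeR adjusted p = 0.0361) to 0.45 for Pcgf1. In FPKM, however, the groups overlapped for Pcgf1, Pcgf3, Pcgf5 and Pcgf6, and stood apart only for Pcgf2. Cdkn2a itself, a cell cycle inhibitor gene, fell by 0.48 on the log2 scale (edgeR adjusted p = 4.99e-10), with 32.3 ± 1.24 CPM in ad-CRE and 45.0 ± 2.09 CPM in ad-GFP (SD, n = 4 each).

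The chromobox genes, whose products read the PRC2 mark, moved in opposite directions too. Cbx2 (ENSMUSG00000025577, chromosome 11, 119022962 to 119031270, plus strand, protein-coding), whose product also compacts chromatin, had 12.8, 12.0, 13.1 and 10.9 CPM in ad-CRE replicates 1 to 4, against 22.0, 22.9, 21.0 and 20.4 CPM in ad-GFP replicates 1 to 4. Its ad-CRE libraries were far below its ad-GFP libraries. The fall was −0.82 on the log2 scale (SE 0.07, edgeR adjusted p = 8.59e-12), the largest fall among the 9.

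Cbx7 (ENSMUSG00000053411, chromosome 15, 79915807 to 79971119, minus strand, protein-coding), the chromobox gene known from mouse embryonic stem cells as the main form there, had 9.50, 8.12, 8.65 and 9.33 CPM in the ad-CRE libraries, again by replicate number. Its values were 4.92, 5.05, 4.38 and 5.16 CPM in ad-GFP replicates 1 to 4, so each ad-CRE library exceeded all of these. The log2 fold change was 0.87 (SE 0.108, edgeR adjusted p = 2.52e-08), on 715 reads in ad-CRE and 362 in ad-GFP. Its FPKM values were less even, at 3.69, 4.05, 2.88 and 3.86 in ad-CRE and 2.08, 2.12, 2.53 and 1.74 in ad-GFP. The gene length that the count and the FPKM imply together ran from 1748 to 2982 bases across libraries for Cbx7, a 1.71-fold spread, while for the other 8 genes it spread by at most 1.12-fold. Its 3′ end shares 100 bases with Apobec3 on the opposite strand, which rose by 0.29 on the log2 scale (edgeR adjusted p = 0.000168).

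Cbx8 (ENSMUSG00000025578, chromosome 11, 119036305 to 119040969, minus strand, protein-coding), a chromobox gene lying 5034 bases from Cbx2, had 5.97, 4.68, 5.60 and 6.10 CPM in ad-CRE replicates 1 to 4 and 4.59, 4.34, 5.02 and 4.47 CPM in ad-GFP replicates 1 to 4. The groups overlapped through ad-CRE replicate 2. Its rise of 0.28 on the log2 scale (SE 0.125, edgeR adjusted p = 0.0445) only just passed, and in 14 of 18 other settings it did not. These included DESeq2 (adjusted p = 0.0866) and the fits without any 1 of 6 libraries, all but ad-CRE replicate 2 and ad-GFP replicate 3. In the authors' deposited table its FDR was 0.118. Hence Cbx8 is the one called gene of the 9 whose call depends on the setting.

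Cbx2 and Cbx8 are neighbours on chromosome 11, and Cbx7 and the non-member Cbx6 are near each other on chromosome 15. Cbx6 fell by 0.20 on the log2 scale (edgeR adjusted p = 3.34e-05). Each place thus held a fall and a rise, though the rise of Cbx8 depended on the setting. With 36.8% of all tested genes rising and 36.3% falling, such pairs are no pattern by themselves. Cbx6 gave most of the summed FPKM of these 4 chromobox genes, 67.3% to 72.2% in ad-CRE and 70.6% to 74.3% in ad-GFP. Cbx2 made up 10.2% to 12.3% of that sum in ad-CRE and 16.4% to 19.0% in ad-GFP. For Cbx7 the share was 10.4% to 15.0% in ad-CRE and 5.33% to 7.43% in ad-GFP, so the ranges of both genes stood apart between groups. Cbx8 had the smallest mean share, with a range of 4.26% to 6.55% in ad-CRE that lay just above its 3.81% to 4.14% in ad-GFP.

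**Figure D3:**
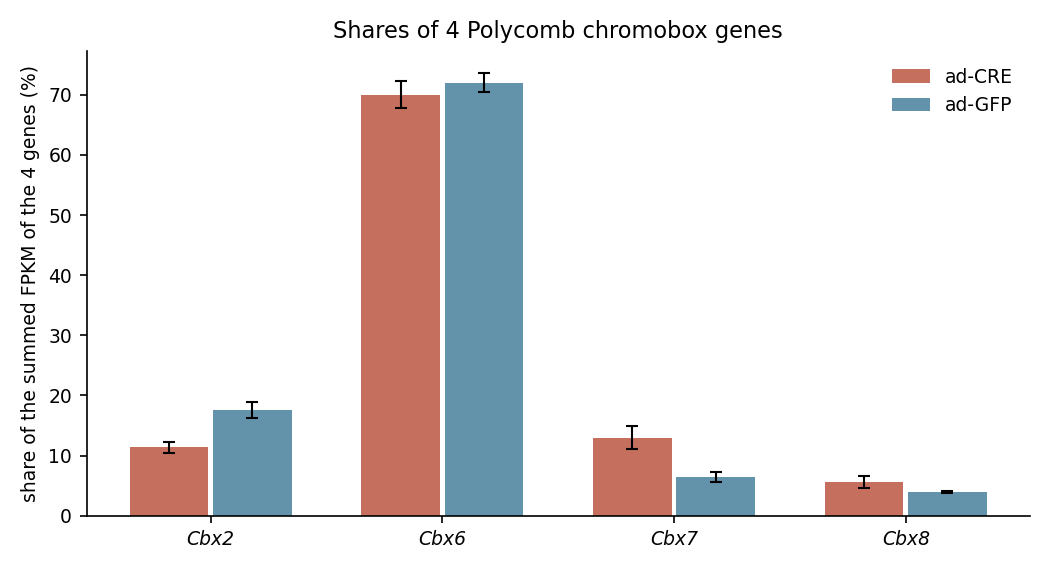
Share of each of 4 Polycomb chromobox genes in their summed FPKM (vertical axis, percent, bars from 0; mean with SD, n = 4 libraries per group), ad-CRE left of ad-GFP. Cbx2 held 11.4% in ad-CRE and 17.5% in ad-GFP; Cbx7 held 13.0% in ad-CRE and 6.47% in ad-GFP.

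Ordered by mean FPKM in ad-CRE, the 9 genes were Eed (29.2), Ezh2 (28.1), Bmi1 (25.2), Suz12 (24.9), Ezh1 (12.1), Ring1 (4.69), Cbx7 (3.62), Cbx2 (3.17) and Cbx8 (1.55). In ad-GFP the order was Eed (41.1), Ezh2 (40.6), Suz12 (25.2), Bmi1 (25.2), Ezh1 (9.03), Cbx2 (5.72), Ring1 (3.54), Cbx7 (2.12) and Cbx8 (1.30). Eed and Ezh2 could not be separated beyond their spread in either group, nor could Suz12 and Bmi1. Cbx2 stood above Cbx7 in all ad-GFP libraries, whereas in ad-CRE Cbx2 (2.84 to 3.40 FPKM) and Cbx7 (2.88 to 4.05 FPKM) overlapped.

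The other subunits of both complexes moved in both directions, beside 36.8% of all tested genes that rose and 36.3% that fell. Among 12 PRC2 accessory genes, 11 were tested; 8 fell, 2 rose and 1 missed the threshold (median log2 fold change −0.34). Rbbp4 and Rbbp7, the histone-binding proteins that PRC2 shares with other complexes, had −0.63 and −0.38, with edgeR adjusted p values of 1.47e-18 and 2.32e-13. Lcorl had −0.73 and Eloa −0.34. The other 6 that were called were Phf19 (−1.82, on 78 reads in ad-CRE and 256 in ad-GFP), Epop (−0.71), Aebp2 (−0.29), Mtf2 (−0.16), Jarid2 (0.25) and Phf1 (0.30). Apart from Epop, these encode proteins that help PRC2 find or hold chromatin. Lcor had 0.07 (edgeR adjusted p = 0.232). Ezhip, an inhibitor of PRC2, had 0 counts in all 8 libraries.

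Among the 31 further PRC1 genes, all tested, there were 16 rises, 9 falls and 6 that missed the threshold (median log2 fold change 0.10). Rybp, a subunit of the PRC1 forms that lack chromobox proteins, rose by 0.68, Dcaf7 by 0.67 and Kdm2b, which brings PRC1 to CpG islands, by 0.32. Bcor, a corepressor subunit, and Mga, a DNA-binding subunit, had −0.83 and −0.61. Scml4, little expressed, had the largest change of the list, −4.04, on 13 reads in ad-CRE and 205 in ad-GFP. With 0.05 to 0.40 CPM in ad-CRE, it passed the filter on low counts only through ad-GFP. Scml4 could thus only appear as a fall, and it is counted among the 9. Usp7, which had the highest CPM of this list averaged over both groups, had −0.05 (edgeR adjusted p = 0.115). Over both lists, 35 of 42 other Polycomb genes were called, 18 upwards and 17 downwards, beside the background of 73.1%. Against a minimum change of 1.2-fold 18 of the 42 passed, 7 upwards and 11 downwards, beside 43.4% of all tested genes. The 7 rises were all among the 31 PRC1 genes, with 0 among the 11 tested PRC2 accessory genes. Ezh1, a PRC2 gene of the 9, also rose and passed that test.

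**Figure D4:**
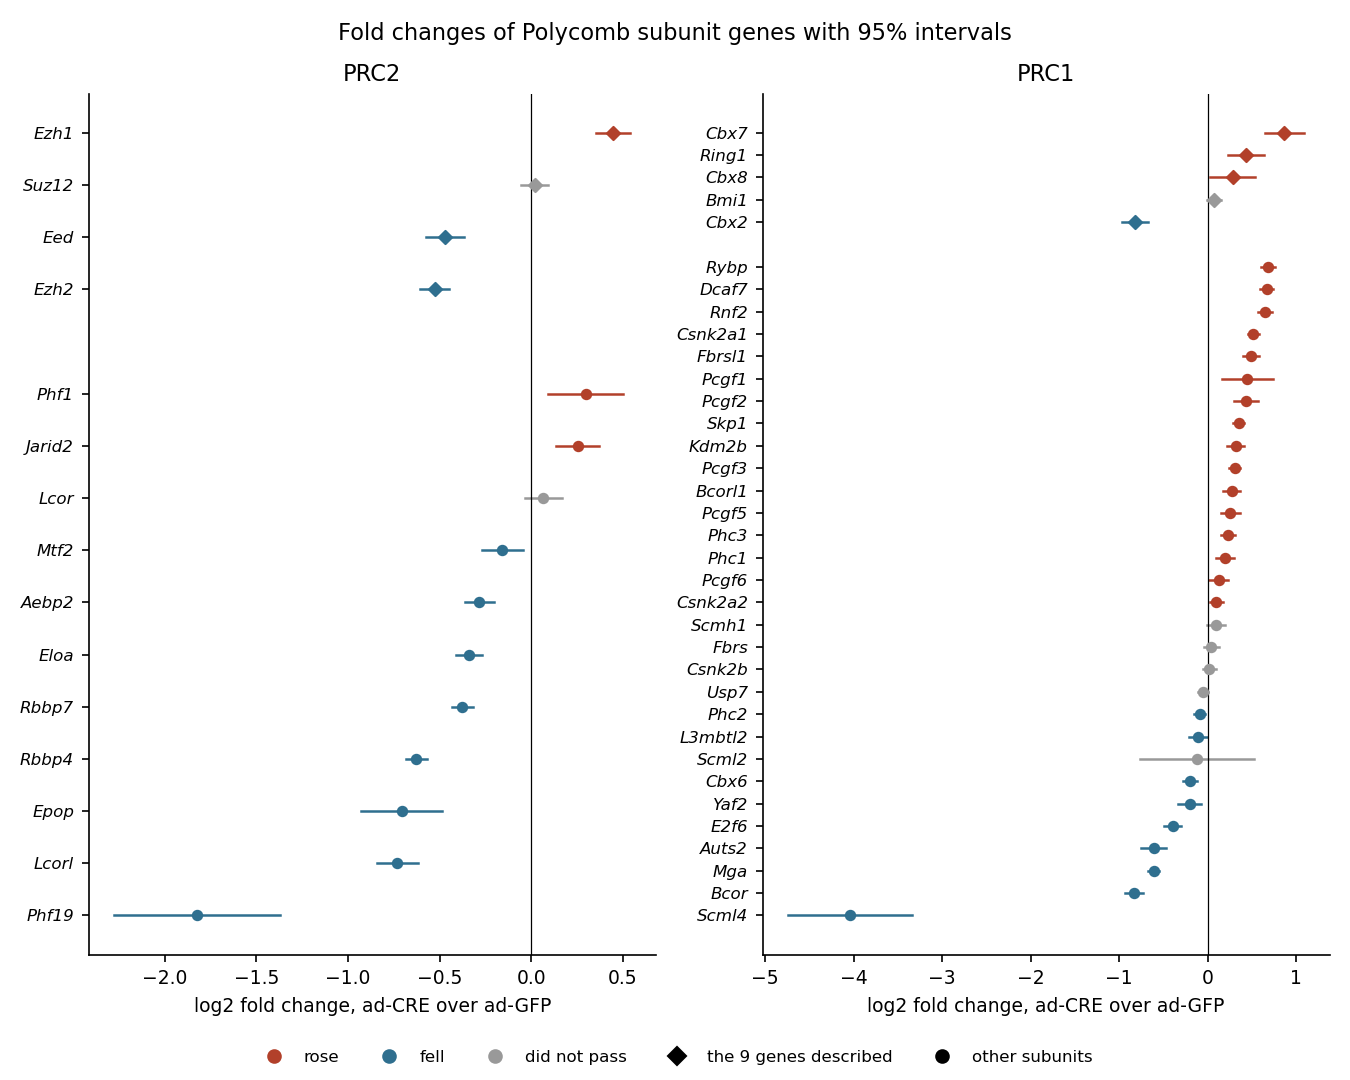
Log2 fold change of ad-CRE over ad-GFP (horizontal axis, scaled separately in each panel) with 95% intervals from edgeR for PRC2 genes (left) and PRC1 genes (right); diamonds are the 9 genes described and circles most of the other tested subunits. Points are coloured by whether the gene rose, fell or did not pass. Ezh1 stands at 0.45 and Ezh2 at −0.53; Cbx7 stands at 0.87 and Cbx2 at −0.82.

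Enzymes that remove the Polycomb marks, with their partners, had log2 fold changes of −0.28 to 0.48. All 15 were tested, with 5 rises, 5 falls and 5 that missed the threshold (median log2 fold change 0.03). The shares of all tested genes were 36.8% for rises and 36.3% for falls. Against a minimum change of 1.2-fold, edgeR called 4 rises and 0 falls, with 0 falls at an unadjusted p under 0.05 too. That test called 43.4% of all tested genes, in either direction. The H3K27 demethylase gene Kdm6b had −0.15 and Kdm6a 0.03 (edgeR adjusted p = 0.549). Bap1, which removes ubiquitin from H2A, had −0.13, and its forkhead partners Foxk1 and Foxk2 had 0.35 and −0.07, the second with an edgeR adjusted p of 0.0749. Mbd6, which also binds the Bap1 complex, rose by 0.48, and Usp22, another H2A deubiquitinase gene, by 0.44. Uty, a relative of Kdm6a, had −0.28.

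The developmental regulators that Polycomb is known to hold silent in embryonic cells were mostly low. Of 50 such genes 29 were tested, with 19 falls, 5 rises and 5 that missed the threshold (median log2 fold change −0.48). Of all tested genes 36.3% fell and 36.8% rose. Some falls were of genes near the floor in ad-CRE, such as Tbx20, Foxd3, Dlx5 and Pax6 (means of 0.14, 0.16, 0.16 and 0.37 CPM). Such genes passed the filter on low counts only through ad-GFP, so they could only appear as falls. With a filter of 5 CPM in at least 4 libraries only 8 falls were counted, beside 4 rises. Against a minimum change of 1.2-fold there were 2 rises and 14 falls, beside 43.4% of all tested genes called. Tbx20 fell most (−4.94, on 11 reads in ad-CRE and 327 in ad-GFP), and Eomes and Gata2 had −2.12 and −1.35. Cdkn1c, a cell cycle inhibitor gene, had −1.09, whereas Irx3 rose by 0.92, Bmp4 by 0.53, Wnt5a by 0.30 and Cdkn2b, a neighbour of Cdkn2a, by 0.14. Tbx5, Olig2 and Neurog1 were among those with 0 counts in all libraries. These transcripts do not show where the Polycomb marks lay, which was not measured.

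Beside the fall of Ezh2 and Eed, genes of S phase and mitosis were lower: 21 of 24 fell, 0 rose and 3 missed the threshold (median log2 fold change −1.13). Falls made up 36.3% of all tested genes and rises 36.8%. At an unadjusted p under 0.05, edgeR and DESeq2 also gave 0 rises for the S phase and mitosis genes. The summed level of these genes was 977 to 995 CPM in ad-CRE and 2007 to 2096 CPM in ad-GFP. Mcm6, a helicase subunit gene, had −1.83 and Ccne2, an S phase cyclin gene, −2.88, larger falls than that of Ezh2. Rrm1, for a subunit of ribonucleotide reductase, had −1.45, Mcm4 −1.52 and Mcm7 −0.36. The 5 genes whose log2 CPM followed Ezh2 most closely over the 8 libraries, among 11177 compared, were Rbbp7, Cdk1, Ppp5c, Mcm5 and Ctdspl, with Pearson r of 0.996 to 0.998. Since 2691 genes had r above 0.9, and all libraries of a group differ together, this is a description only. The part of cell division in the Polycomb values was not tested.

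SWI/SNF remodellers, which oppose Polycomb as first seen in Drosophila, were set beside these genes because Smarca4 is among them. There were 12 rises and 4 falls among 24 tested, and 8 missed the threshold (median log2 fold change 0.25), beside 36.8% rises and 36.3% falls over all tested genes. Arid1b rose by 0.71 and Arid2 by 0.66, both subunits that define classes of the complex, and Ss18, Arid1a and Smarcc1 by 0.43, 0.37 and 0.24, while Smarca2, the alternative ATPase gene, had −0.02 and did not pass. What the changed level of Smarca4 contributed to the Polycomb values was not tested.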

How the data were processed

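RNA was sequenced in 8 libraries of TGF-β-treated RFB cells, 4 ad-CRE and 4 ad-GFP, with a SMARTer kit, per the labels' protocols. GRCm38 and mm10 are the builds in the submitters' processing notes. The aligner, counter, annotation, use of strand and authors' test are among what is not given in the sources. The authors deposited 1 table with a whole-number read count and an FPKM per gene and library. It also holds the authors' log2 fold change of mean FPKM, p-value and FDR, per the file headers. In 38 genes all counts were 0 with an FPKM above 0, so deposited counts may be rounded estimates. FPKM was used only to compare genes and in alternatives.

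Counts were fitted with edgeR 4.0.16 in R 4.3.3 (filterByExpr, TMM factors, quasi-likelihood test, group as the only term), on all genes, with Benjamini-Hochberg adjustment and a threshold of 0.05. CPM values were scaled by TMM factors. The SE is the log2 fold change divided by the root of F, and 95% intervals are not adjusted for the number of genes. The script was tested on simulated counts with 200 genes changed, far fewer than were called in the real libraries. It called 64% of genes changed by 0.25 on the log2 scale, 77.6% at 0.5, 98% at 1 and 100% at 2. A setting with as many changed genes as in these data was not simulated. No replicate was a copy of another (chi-square of pairs over their degrees of freedom 1.71 to 3.24). Gene IDs were located in GENCODE M21 (22219 matched); promoter windows are RefSeq's. The Ezh2 to Ezh1 ratio was tested with an exact permutation test (scipy 1.17.1). Alternatives were DESeq2 1.42.0, its size factors, total counts, other filters and thresholds, a minimum fold of 1.2, limma-trend (limma 3.58.1) on log2(FPKM + 1) and log2(FPKM + 0.1), a replicate term and leaving out each library. The members, lists, ratio and motifs were chosen with earlier results of these data known. Named genes are the 9 members, Suv39h1, Smarca4, and in each list of regulators the 4 with the smallest p-values, the 2 with the highest levels and those at 0 counts; other genes and markers are named after their values were seen. Some genes of the lists are not reported here by name. Figures were drawn with matplotlib 3.10.9.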

Additional observations from a re-analysis of the deposited data

How the results depend on the processing

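Ezh2, Ezh1, Eed, Ring1, Cbx2 and Cbx7 kept their direction and their call under all 18 alternatives run, with log2 fold changes of −0.56 to −0.51, 0.38 to 0.46, −0.52 to −0.43, 0.33 to 0.48, −0.85 to −0.69 and 0.57 to 0.91. Cbx8 passed in 4 of 18 (range 0.15 to 0.36). The count of members called was 6 to 8 when 1 library was left out. Suz12 changed sign without passing: −0.0053 with a filter of 5 CPM, −0.0080 with total counts only, −0.016 on log2(FPKM + 1), −0.017 on log2(FPKM + 0.1), and −0.00078 to 0.054 when 1 library was left out. Against a 1.2-fold minimum, 18 other Polycomb genes were called rather than 35 (7 rose, 11 fell), by the test's own construction. Of all tested genes it called 43.4% rather than 73.1%. In both limma-trend fits on FPKM, 13 other Polycomb genes rose and 17 fell, against 18 and 17 in the main fit. No scaling moved the median of all genes by more than 0.1 on the log2 scale. The log2 ratio of Ezh2 to Ezh1 differed by −0.99 to −0.90 when 1 library was left out, where 4 against 3 libraries cannot go below an exact permutation p of 0.0571. Replicate numbers did not pair the libraries: deviations of same-numbered libraries correlated at −0.070 to 0.072, and 2 of 8 libraries correlated best with their own number. With a replicate block, 6 members were called, Cbx8 being lost (adjusted p = 0.0563), and the paired sign-flip of the ratio (−0.95) gave an exact permutation p of 0.125, the smallest it can give. Few reads limit Cbx7, Cbx8 and Ring1.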
